A study of Mus musculus with 12 samples.

Results

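Ovarian transcripts of 9 genes that act in the apoptosis of follicle cells were examined: the survival genes Bcl2, Bcl2l1 and Mcl1, the effector Bax, the BH3-only genes Bcl2l11 (BIM), Bid and Bbc3 (PUMA), the death receptor gene Fas and its ligand gene Fasl. A gene was read at every probe of the array that is annotated with its symbol alone. By this rule 7 of the 9 genes were measured, each by 1 probe, out of 21615 probes annotated with a single symbol for 18069 genes. Bax had no such probe, and the 1 probe that carries the name Bid also carries that of another gene, so neither was read. Probes without a symbol in this annotation were not read, although some may measure these genes. Levels are relative intensity units on a linear scale, on which the median probe of an array is close to 1, and 0.2 units was taken as the limit of sensitivity. All 7 genes passed the filter on low values, since the mean of 1 or more groups reached 0.2 units. Bcl2l1 passed it only through its 90-day arrays.

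Whole ovaries came from 12 female mice of the C57BL/6J background, 1 mouse per array and 3 mice in each of 4 groups: 180-day old lethal yellow (LY) mice, 180-day old black mice, 90-day old LY mice and 90-day old black mice. LY mice carry the Ay allele of agouti over a (Ay/a), a deletion that removes most of Raly, puts agouti under the promoter of that gene in all tissues and leads to obesity with age, whereas black mice are a/a. All 12 mice, controls included, had been given the GnRH antagonist Antide (10 μg/g body weight on days 1 and 4), which suppresses the pituitary gonadotropins, then equine chorionic gonadotropin (eCG, 1 IU per 5 g body weight), which drives follicles to grow, and the ovaries were taken on day 7. The values are therefore those of stimulated ovaries and do not describe a natural cycle. The comparison of LY with black mice was made to ask whether obesity alters ovarian gene expression when gonadotropins are controlled. Both doses were set by body weight, so a heavier mouse received more in total. LY and black mice differ in genotype at both ages, and at 180 days obesity and genotype cannot be told apart.

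Most follicles of a mouse ovary never ovulate and are lost by atresia, in which granulosa cells, and in small follicles the oocyte, die by apoptosis. Whether a cell dies through its mitochondria depends on the balance within the BCL2 family: survival proteins (BCL2, BCL-XL from Bcl2l1, MCL1) hold the effectors BAX and BAK inactive, and BH3-only proteins (BIM, BID, PUMA) release them, after which cytochrome c leaves the mitochondria and caspases are activated. FAS, a receptor on the cell surface, activates caspases directly when it binds FAS ligand, and both have been studied as inducers of granulosa cell death in rodents. Gonadotropins such as eCG protect antral follicles from atresia.

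Promoter sequence is shown for Bcl2l11 and Bbc3, the 2 BH3-only genes that were measured, and for Mcl1, the gene whose LY and black arrays separated at both ages. Forkhead transcription factors such as FOXO3 are known to activate Bcl2l11 and Bbc3 in several cell types, and ETS family factors bind the core of the word CCGGAAG. In the 250 bases before each annotated transcription start (RefSeq, GRCm38.p6), the forkhead word GTAAACA was searched on both strands. It was present in 2 of the 12 windows of the 7 genes, 1 of Bcl2l11 and 1 of Bbc3, and in 3.17% of all 32851 windows. The word CCGGAAG was present in 2 of the 12 windows, 1 of Bcl2l11 and 1 of Mcl1, against 6.91% of all windows, and the GC box GGGCGG in 9 of the 12, all but the 3 windows of Bcl2l1, against 32.7% of all windows. A match of letters is not a binding site. In the sequences below capitals mark GTAAACA in Bcl2l11, its reverse complement TGTTTAC in Bbc3 and CCGGAAG in Mcl1, whose first bases lie 227, 167 and 63 bases before the start.
Bcl2l11, chr2:128125788-128126037, plus strand: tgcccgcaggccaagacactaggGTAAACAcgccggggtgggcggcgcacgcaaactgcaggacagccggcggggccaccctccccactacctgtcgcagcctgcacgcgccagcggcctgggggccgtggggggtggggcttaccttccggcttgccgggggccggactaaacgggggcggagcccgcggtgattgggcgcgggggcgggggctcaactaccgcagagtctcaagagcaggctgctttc
Mcl1, chr3:95658471-95658720, plus strand: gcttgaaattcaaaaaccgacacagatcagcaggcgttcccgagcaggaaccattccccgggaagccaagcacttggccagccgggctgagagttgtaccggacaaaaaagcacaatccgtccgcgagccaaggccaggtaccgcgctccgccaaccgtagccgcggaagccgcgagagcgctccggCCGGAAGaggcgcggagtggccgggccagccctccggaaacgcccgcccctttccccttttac
Bbc3, chr7:16310083-16310112, plus strand, 30 bases around the word: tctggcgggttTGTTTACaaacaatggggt

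The arrays matched their genotype labels. Agouti read 96.7, 101 and 111 units in 180-day old LY ovaries against 0.169, 0.368 and 0.345 units in 180-day old black ovaries, and 95.7, 99.2 and 96.8 units in 90-day old LY ovaries against 0.280, 0.313 and 0.291 units in 90-day old black ovaries. Raly, which the Ay deletion disrupts, was lower in LY ovaries without overlap at either age, with folds of 0.572 at 180 days and 0.602 at 90 days. Its adjusted p was 0.169 and 0.17 in limma, so a gene can differ between the genotypes without passing this test. Arrays of a group correlated at 0.970 to 0.987 and arrays of different ages at 0.918 to 0.938. The 180-day and 90-day arrays appear, from their medians and from the order of the experiments in the study, to have been run as separate sets, and an effect of age cannot be told apart from one of the array set. On later principal components 1 array each of the 90-day black (replicate 1), 90-day LY (replicate 1) and 180-day LY (replicate 3) groups lay apart from the other arrays of its group, and values without them are given where they matter. The tissue was ovary by its markers: all 10 oocyte genes and all 9 measured granulosa genes lay above the limit of sensitivity on every array. In RNA of a whole ovary, fewer cells of a type and less RNA per cell cannot be told apart.

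At 180 days, when the LY mice were obese, none of the 7 genes passed the test between LY and black ovaries (limma, adjusted over all probes tested, threshold 0.05). Of all 31463 probes tested at this age, 0.0445% passed. The count of the 7 genes was also 0 at an unadjusted p under 0.05, which 12% of all probes had (3766 of 31463). The methods' t-test called none of them after Benjamini-Hochberg adjustment and gave Mcl1 an unadjusted p of 0.0288. The median log2 difference (LY minus black) of the 7 genes was -0.046, beside 0.029 over all probes. In 1 of the 7 genes, Mcl1, the LY and black arrays did not overlap, as in 22.6% of all probes, LY being the higher in 14.2%. At 90 days the count was again 0 of 7 in limma, beside 0.0444% of 31500 probes, and it was 0 at an unadjusted p under 0.05, beside 13.3% of all probes, and 0 by the methods' t-test. The median log2 difference was -0.062, beside -0.004 over all probes. Mcl1 was again the 1 gene of 7 without overlap, as were 16.5% of all probes at that age, LY being the lower in 9.54%. The plot of array values shows every measurement behind these counts.

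**Figure D1:**
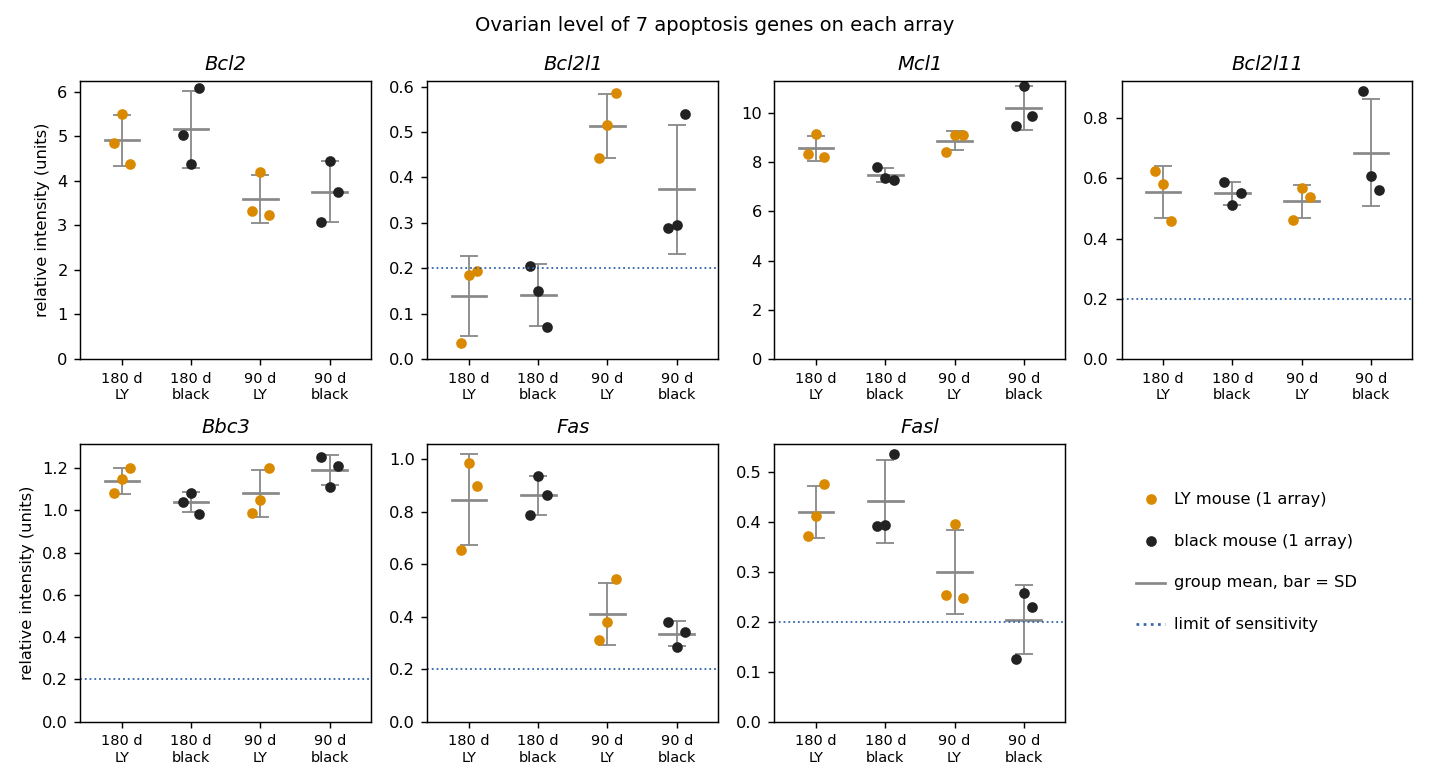
Relative intensity (linear axis from 0, units with an array median near 1) of the 7 genes on each of the 12 arrays, with the group mean and SD (n = 3 mice), the 4 groups from left to right being 180-day LY, 180-day black, 90-day LY and 90-day black. LY and black points separate at both ages for Mcl1 only, LY being above black at 180 days and below black at 90 days, and at 180 days 5 of the 6 Bcl2l1 points lie under the limit of sensitivity (dotted line, 0.2 units) and the other, at 0.204 units, just above it.

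Among the survival genes, Mcl1, whose short-lived protein is needed for oocyte survival in mice, was the one whose LY and black arrays did not overlap at either age. In 180-day old LY ovaries it read 8.35, 9.15 and 8.19 units, against 7.80, 7.36 and 7.29 units in 180-day old black ovaries. Every LY array was above every black array, with means of 8.56 ± 0.512 and 7.48 ± 0.277 units (SD, n = 3 each), a fold of 1.14 with a 95% interval of 0.997 to 1.31. In limma the difference had a p of 0.0537 and an adjusted p of 0.426, so it did not pass. In 90-day old LY ovaries Mcl1 read 8.41, 9.09 and 9.11 units, against 9.46, 11.1 and 9.86 units in 90-day old black ovaries. Here every LY array was below every black array, with means of 8.87 ± 0.397 and 10.2 ± 0.882 units (SD, n = 3 each), a fold of 0.875 with a 95% interval of 0.763 to 1.00 and an adjusted p of 0.386 in limma. LY above black without overlap at 180 days and below it at 90 days was the order of 1.82% of all probes, 560 of 30795.

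The difference between the 2 ages was tested directly as an interaction, the 180-day log2 difference minus the 90-day log2 difference. For Mcl1 it was 0.39 (SE 0.13), a ratio of folds of 1.31 with a 95% interval of 1.08 to 1.58. It had an unadjusted p of 0.0112 and an adjusted p of 0.246 in limma and did not pass. It was the 1 gene of the 7 with an unadjusted p under 0.05 in the interaction, where 12.1% of all probes had one and 0.0% of 31359 probes passed after adjustment. The difference between ages was larger in black ovaries: the ratio of the 180-day to the 90-day mean of Mcl1 was 0.737 in black ovaries, without overlap between the ages, and 0.965 in LY ovaries, with overlap. Granulosa marker estimates ran the other way from Mcl1 at both ages. Their summed level over 9 genes ran from 215 to 277 units in 180-day old LY ovaries and from 288 to 368 in 180-day old black ovaries, and from 303 to 426 units in 90-day old LY ovaries and from 309 to 396 in 90-day old black ovaries. The sums of LY and black ovaries did not overlap at 180 days and did at 90 days. Of the 9 genes, 8 had a lower estimate in LY ovaries at 180 days and 8 a higher one at 90 days, none of them past the test. Oocyte marker estimates had the same signs, 9 of 10 being lower in LY ovaries at 180 days and 9 of 10 higher at 90 days. The part of granulosa cell or oocyte content in the Mcl1 values was not tested.

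Bcl2, the founding survival gene, whose product protects oocytes and granulosa cells when overexpressed in mice, gave nearly the same small difference at both ages. It read 4.86, 5.51 and 4.37 units in 180-day old LY ovaries, against 5.02, 4.37 and 6.09 units in 180-day old black ovaries. It read 3.33, 4.20 and 3.23 units in 90-day old LY ovaries, against 3.08, 4.44 and 3.75 units in 90-day old black ovaries. The groups overlapped at each age. The log2 difference was -0.06 (SE 0.17, 95% interval -0.44 to 0.32) at 180 days and -0.06 (SE 0.17, 95% interval -0.44 to 0.32) at 90 days, with adjusted p of 0.917 and 0.916 in limma.

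Bcl2l1, which encodes the survival protein BCL-XL and, by splicing, a shorter form that promotes death, was near the limit of sensitivity. In 180-day old LY ovaries it read 0.0361, 0.186 and 0.194 units, all under the limit, against 0.204, 0.149 and 0.0697 units in 180-day old black ovaries, of which 2 were under it, so no fold is given for that age. In 90-day old LY ovaries it read 0.443, 0.515 and 0.585 units, against 0.288, 0.296 and 0.539 units in 90-day old black ovaries. All 6 arrays were above the limit at this age, and the third black array lay within the LY values. The log2 difference at 90 days was 0.51 (SE 0.61, 95% interval -0.83 to 1.86, adjusted p of 0.765 in limma), and 0.81 without 90-day black replicate 3. Fitted to the 90-day arrays alone, the same difference had a p of 0.0921 (adjusted p of 0.581), and with all values under 0.2 units set to 0.2 it had a p of 0.0232 (adjusted p of 0.299).

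Of the BH3-only genes, Bcl2l11 encodes BIM, a direct activator of BAX and BAK that can bind every survival protein of the family. At the 1 probe read, its means were nearly equal at 180 days, and any probe of this gene without a symbol was not read. Bcl2l11 at this probe read 0.625, 0.580 and 0.458 units in LY ovaries against 0.588, 0.511 and 0.552 units in black ovaries, with means of 0.554 ± 0.0867 and 0.550 ± 0.0388 units (SD, n = 3 each). The fold was 1.00 with a 95% interval of 0.761 to 1.31 (adjusted p of 1.0 in limma). At 90 days it read 0.463, 0.568 and 0.539 units in LY ovaries against 0.889, 0.607 and 0.560 units in black ovaries. The LY values were low and close together and overlapped only the lowest black array. The fold was 0.778 with a 95% interval of 0.592 to 1.02 (log2 difference -0.36, SE 0.18, adjusted p of 0.413 in limma). This value rests largely on 1 array. The highest reading, 0.889 units, is 90-day black replicate 1, the array that stood apart on the second principal component, and without it the log2 difference was -0.16 (adjusted p of 0.702). Averaged over both ages, Bcl2l11 had the lowest p of the 7 genes, with a log2 difference of -0.18 (SE 0.13, 95% interval -0.46 to 0.10, adjusted p of 0.582). Without 90-day black replicate 1 this average was -0.08 (adjusted p of 0.757), and without 180-day LY replicate 3 it was -0.12. In that average 0 of 7 genes passed, with 0 at an unadjusted p under 0.05, beside 0.00638% and 13.0% of all probes.

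Across the 12 arrays, each value centred on the mean of its age, the 3 genes whose log2 levels were most like that of Bcl2l11 were Adam1b (Pearson r 0.965), Meox2 (0.941) and Abcg5 (0.938). Without 90-day black replicate 1 the values over 11 arrays were 0.894, 0.830 and 0.816. These genes were picked as the highest of all tested genes with a single symbol, so the correlations only describe which genes shared the arrays' order. Among the 7 genes themselves the centred correlations ran from -0.691, between Bcl2l11 and Fasl, to 0.575, between Bcl2 and Fasl.

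Bbc3 encodes PUMA, a BH3-only protein that p53 induces and that takes part in the death of mouse oocytes with damaged DNA. It read 1.08, 1.15 and 1.20 units in 180-day old LY ovaries against 1.04, 1.08 and 0.984 units in 180-day old black ovaries, and 0.986, 1.05 and 1.20 units in 90-day old LY ovaries against 1.25, 1.11 and 1.21 units in 90-day old black ovaries. LY ovaries had the higher mean at 180 days and the lower mean at 90 days, and the groups overlapped at both. The log2 difference was 0.14 (SE 0.10, 95% interval -0.08 to 0.35, adjusted p of 0.606) at 180 days and -0.15 (SE 0.10, 95% interval -0.36 to 0.07, adjusted p of 0.550) at 90 days in limma. Leaving out 90-day LY replicate 1 gave -0.08 at 90 days, and leaving out 90-day LY replicate 3 gave -0.23. The interaction was 0.28 (SE 0.14, 95% interval -0.02 to 0.59), with an adjusted p of 0.440. It had the same sign as that of Mcl1, a survival gene that opposes it.

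Fas and Fasl, the receptor and ligand of the extrinsic route, showed no difference beyond the spread between mice at 180 days. Fas read 0.655, 0.988 and 0.898 units in 180-day old LY ovaries against 0.790, 0.938 and 0.864 units in 180-day old black ovaries, with the lowest and the highest value both in LY mice. The log2 difference was -0.05 (SE 0.21, 95% interval -0.52 to 0.42, adjusted p of 0.956 in limma). Fasl read 0.373, 0.413 and 0.476 units in 180-day old LY ovaries against 0.393, 0.394 and 0.537 units in 180-day old black ovaries, a log2 difference of -0.06 (SE 0.27, 95% interval -0.67 to 0.55, adjusted p of 0.955). The groups overlapped for both genes. With 3 arrays per group, changes within these intervals could not be told from no change. Larger changes can also miss the adjusted threshold, as Raly did at 180 days (log2 difference -0.81, adjusted p of 0.169 in limma).

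At 90 days both genes had a higher mean in LY ovaries, and neither passed. Fas read 0.311, 0.380 and 0.543 units in 90-day old LY ovaries against 0.381, 0.285 and 0.342 units in 90-day old black ovaries, with a log2 difference of 0.26 (SE 0.21, 95% interval -0.21 to 0.73, adjusted p of 0.633 in limma). It was 0.44 without 90-day LY replicate 1, 0.04 without 90-day LY replicate 3 and 0.15 without 90-day black replicate 2. Fasl read 0.255, 0.397 and 0.248 units in 90-day old LY ovaries against 0.126, 0.259 and 0.231 units in 90-day old black ovaries. The second LY array stood above the other 5, and the first black array, again 90-day black replicate 1, lay under the limit of sensitivity. The log2 difference of Fasl was 0.58 (SE 0.27, 95% interval -0.03 to 1.19, adjusted p of 0.397), and without that black array it was 0.26 (adjusted p of 0.673). Without 90-day LY replicate 2 it was 0.36 (adjusted p of 0.699). Fasl is made mainly by activated T and NK cells, so their markers were read beside it: the summed level of 10 T and NK cell genes ran from 8.25 to 9.98 units in 90-day old LY ovaries and from 8.06 to 8.98 units in 90-day old black ovaries. Of these genes, 7 of 10 had a higher estimate in LY ovaries at that age and none passed, and Cd3e lay under the limit of sensitivity on 10 of the 12 arrays. The part of these cells in the Fasl values was not tested. The interaction was -0.64 (SE 0.39, adjusted p of 0.551) for Fasl and -0.31 (SE 0.30, adjusted p of 0.730) for Fas. With 1 array left out it ran from -0.84 to -0.32 for Fasl, the smallest being without 90-day black replicate 1, and from -0.49 to -0.09 for Fas, the smallest being without 90-day LY replicate 3.

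**Figure D2:**
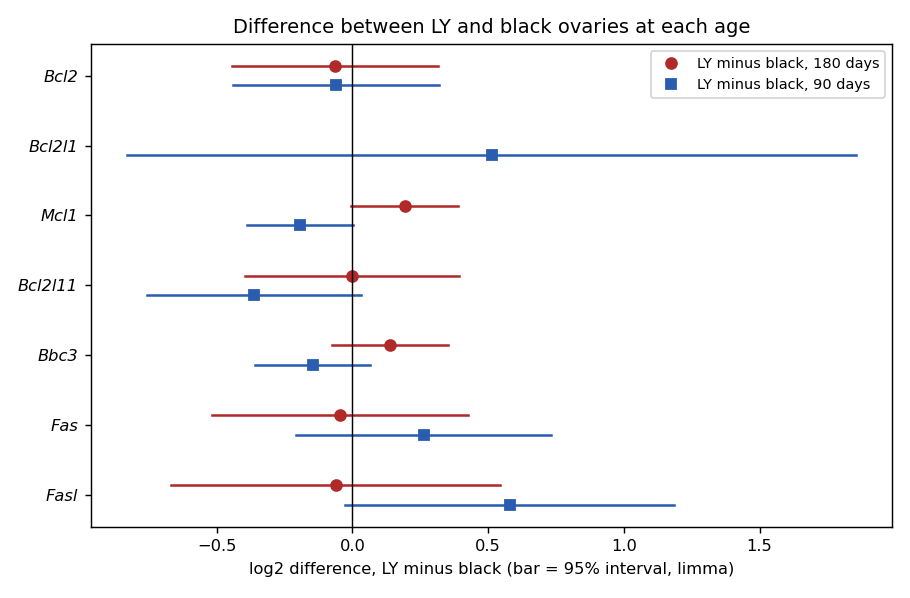
Log2 difference, LY minus black, of each gene at 180 days (circles) and 90 days (squares), with the 95% interval from limma (x axis, log2 units, 0 meaning equal levels). Every interval includes 0, those of Mcl1 being the narrowest and lying on opposite sides, 0.19 at 180 days and -0.19 at 90 days. Bcl2l1 has no 180-day value because both of its group means lay under the limit of sensitivity at that age.

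The rest of the pathway was read in a wider list of 35 genes, of which 26 were measured by a probe of their own. As with the 7 genes above, none of the 26 passed in limma at 180 days, at 90 days, in the average of the ages or in the interaction. The genes with an unadjusted p under 0.05 numbered 4, 4, 3 and 6 of the 26, beside 12%, 13.3%, 13.0% and 12.1% of all probes. The median log2 difference was 0.008 at 180 days (range -0.589 to 0.329) and -0.005 at 90 days (range -0.468 to 0.431). By role, the estimate at 180 days was higher in LY ovaries for 4 of 4 other death receptor and adaptor genes, 4 of 5 inhibitors of apoptosis, 2 of 6 apoptosome and caspase genes, 2 of 5 other BH3-only genes, 1 of 2 other survival genes, 1 of 2 other effectors and 0 of 2 upstream regulators, 14 of 26 in all, beside 17596 of 31463 probes. At 90 days it was higher for 2 of 4, 1 of 5, 2 of 6, 3 of 5, 2 of 2, 0 of 2 and 2 of 2 of them, 12 of 26 in all, beside 15494 of 31500 probes.

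The 3 genes with the lowest p at 180 days were Cycs, Bcl2l10 and Bik. Cycs, which encodes the cytochrome c that triggers the apoptosome and also carries electrons in respiration, read 76.5, 74.8 and 74.2 units in 180-day old LY ovaries against 64.4, 60.1 and 55.4 units in 180-day old black ovaries. Its LY arrays were all above the black ones at 180 days, with a log2 difference of 0.33 (SE 0.09, adjusted p of 0.218 in limma). At 90 days they were mixed, at 46.7, 48.5 and 43.0 units in LY ovaries against 47.0, 49.2 and 42.3 units in black ovaries. Bcl2l10, a BCL2 relative that mouse oocytes express, read 4.01, 2.95 and 2.47 units in 180-day old LY ovaries against 3.72, 4.45 and 6.01 units in 180-day old black ovaries, a log2 difference of -0.59 (SE 0.22, adjusted p of 0.326). Its lowest LY reading was that of 180-day LY replicate 3, an array that lay apart from its group, and no value without it is given. Oocyte marker estimates ran the same way: the sum of 10 oocyte genes ran from 42.2 to 61.6 units in 180-day old LY ovaries and from 62.9 to 83.5 units in 180-day old black ovaries, without overlap. Of the 10, 9 had a lower estimate in LY ovaries, beside 13867 of 31463 probes, and none passed the test. An unadjusted p under 0.05 in limma was found for 6 of the 10, beside 12% of all probes. At 90 days 9 of the 10 had a higher estimate in LY ovaries, as had Bcl2l10 (log2 difference 0.16). The part of oocyte content in the Bcl2l10 values was not tested.

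Bik, a BH3-only gene, had opposite signs at the 2 ages. It read 1.21, 1.12 and 1.17 units in 180-day old LY ovaries against 1.65, 1.72 and 1.14 units in 180-day old black ovaries (log2 difference -0.35, SE 0.15, adjusted p of 0.383 in limma). It read 1.55, 1.80 and 1.74 units in 90-day old LY ovaries against 1.16, 1.30 and 1.33 units in 90-day old black ovaries, without overlap (log2 difference 0.43, SE 0.15, adjusted p of 0.251). Its interaction of -0.78 (adjusted p of 0.176) had the sign opposite to that of Bbc3, the BH3-only gene described above. Casp6, an executioner caspase, had the lowest p of the list at 90 days: it read 18.7, 20.5 and 22.3 units in 90-day old LY ovaries against 31.6, 29.7 and 24.2 units in 90-day old black ovaries, without overlap (log2 difference -0.47, SE 0.11, adjusted p of 0.137). The lowest LY and the highest black reading were those of replicate 1 of each group, arrays that lay apart from their groups. No value without them is given. A second, dimmer probe of Casp6 gave 0.12 (adjusted p of 0.760), so the 2 probes disagreed in sign. Birc2, which encodes the inhibitor cIAP1, read 18.5, 20.1 and 16.9 units in 90-day old LY ovaries against 21.0, 21.7 and 20.9 units in 90-day old black ovaries (log2 difference -0.20, SE 0.08, adjusted p of 0.344). Foxo1 and Foxo3, forkhead genes upstream of Bcl2l11 and Bbc3, had log2 differences of -0.15 and -0.02 at 180 days and 0.04 and 0.43 at 90 days, and neither passed. At 180 days Foxo3 lay under the limit of sensitivity on 2 of 3 LY and 1 of 3 black arrays, so its 180-day difference says little.

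**Figure D3:**
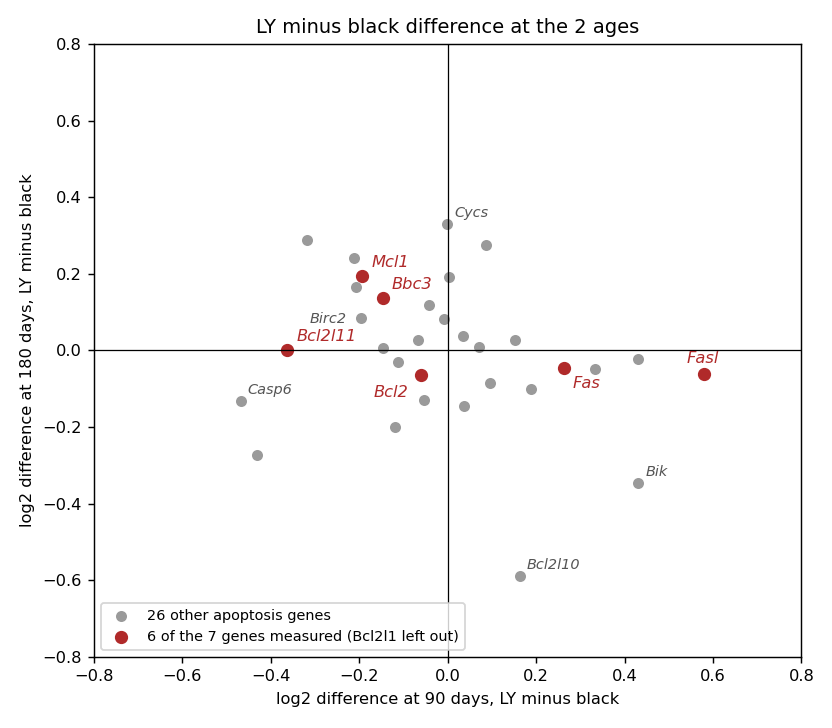
Log2 difference, LY minus black, at 180 days (y axis) against that at 90 days (x axis) for 6 of the 7 genes (red) and the 26 other apoptosis genes (grey), with the 5 genes of the lowest p in the wider list named. Of the genes named, Mcl1, Bbc3 and Birc2 lie at upper left (higher at 180 days, lower at 90 days) and Fas, Fasl, Bik and Bcl2l10 at lower right. Cycs and Bcl2l11 lie on or near a zero line. No point passed the test at either age.

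Between the ages the levels differed much more than between the genotypes, but so did those of most probes: 5 of the 7 genes passed (limma, 180 days minus 90 days averaged over genotypes), beside 59.3% of 31359 probes. Of these genes 3 were higher at 180 days, as were 33.8% of all probes, and 2 lower, as were 25.4%, so a call in this comparison was common among all probes and is given as a description. Of the 2 lower, Bcl2l1 passed the filter only through its 90-day arrays, so its direction was fixed beforehand. The count was 4 where a mean of 0.2 units was asked of every group, which left Bcl2l1 out. Fas was higher at 180 days, from 0.655 to 0.988 units (median 0.881, LY and black together) against 0.285 to 0.543 units at 90 days (median 0.361), and the ages did not overlap, as in 36.6% of all probes. Its log2 difference was 1.22 (SE 0.15, adjusted p of 4.81e-05), a fold of 2.32, and the ratio of means was 2.06 in LY and 2.57 in black ovaries. Of the leukocyte and macrophage markers, 6 of 6 measured genes had a higher estimate at 180 days and 4 passed, and Adgre1 lay under the limit of sensitivity on 8 of the 12 arrays. Their sum ran from 37.1 to 69.6 units in 180-day old LY and 43.4 to 68.2 units in 180-day old black ovaries, and from 30.4 to 43.7 units in 90-day old LY and 26.2 to 41.7 units in 90-day old black ovaries. The sums of LY ovaries overlapped between the ages. Most of each sum was Lyz2, with means of 42.4 units in both 180-day groups and 24.3 (LY) and 22.9 units (black) at 90 days. The part of these cells in the Fas values was not tested.

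Fasl was also higher at 180 days, at 0.373 to 0.537 units against 0.126 to 0.397 units at 90 days, with a fold of 1.78 (adjusted p of 0.00346), and so was Bcl2, at 4.37 to 6.09 units against 3.08 to 4.44 units, with a fold of 1.37 (adjusted p of 0.00740). For both the ages overlapped. The sum of the T and NK cell markers ran from 7.52 to 8.76 units in 180-day old LY and 7.30 to 7.65 units in 180-day old black ovaries, beside the 90-day sums given above. Of the 10 genes, 1 passed as higher and 2 as lower at 180 days, and 8 had a lower estimate. Their part in the Fasl values was not tested. Mcl1 was lower at 180 days, at 7.29 to 9.15 units against 8.41 to 11.1 units, with a fold of 0.844 (adjusted p of 0.00635). Bcl2l1 was lower at 180 days, at 0.0361 to 0.204 units against 0.288 to 0.585 units, without overlap (adjusted p of 0.00345). With its 180-day LY arrays, all under the limit of sensitivity, set to that limit, it was at least 2.56-fold higher in 90-day old than in 180-day old LY ovaries. In black ovaries, where 1 of the 3 180-day arrays was above the limit, the same calculation gave a ratio of 1.78. Having passed the filter only through its 90-day groups, it had to differ in this direction. Bcl2l11 and Bbc3, the BH3-only genes, did not pass, with log2 differences of -0.11 and -0.06 (adjusted p of 0.489 and 0.466).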

How the data were processed

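RNA of whole ovaries from 12 mice was hybridized to one-colour CodeLink arrays. The authors scanned them with GenePix, subtracted background with the CodeLink software and normalized slides to their medians in GeneSpring. The deposited values are linear relative intensity (array medians 1.00 at 180 days and 1.04 at 90 days) and are not centred gene by gene, a step the methods also name. Per array, 166 to 503 values were missing and 67 to 144 negative. Of 36227 probes, 21615 carried 1 symbol in the platform annotation, 681 several and 13931 none, and updating through GRCm38.p6 changed 0 symbols. The number of arrays limits the precision.

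Arrays were rescaled to a median of 1, floored at 0.01 units and converted to log2. limma 3.58.1 (R 4.3.3) fitted 4 group means to 12 arrays, with Benjamini-Hochberg adjustment over the probes whose mean reached 0.2 units in 1 or more groups, at a threshold of 0.05. "LY" and "black" stand for the labels Yellow and Black, which also spell the strain C56BL/6J. The replicates are separate mice. An exact two-sided permutation test of 3 mice against 3 has a smallest p of 0.1, so none is given. Ranges and sums are in units, differences in log2 units, and folds are back-transformed log2 differences.

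The genes and lists were chosen with earlier results of these data known. The text names every single-symbol probe of the 9 genes, wider-list genes past the threshold or among the 3 lowest p at each age (by the brightest probe), agouti, Raly, and the 3 genes most like Bcl2l11. Foxo1, Foxo3, Cd3e, Adgre1, Lyz2, Tnfrsf1a, Fadd, Tnfsf10, Tnfrsf10b and Bak1 were named after their values were seen. Of the wider list 4 genes had only a shared probe and 5 no probe. Alternatives were a floor of 0.2 units, a pseudocount of 0.1 units, quantile normalization, no rescaling, other filters, trended robust variance, array weights, 1 age alone, a replicate block, the methods' t-test, the mean over probes and leaving out each array. The procedure was tested on simulated data.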

Additional observations from a re-analysis of the deposited data

Results flagged for a closer look

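Of the 7 and the 26 genes measured, 2 had no overlap at either age and differences of opposite sign. In both, every LY array was above every black array at 180 days and below every black array at 90 days. This order was that of 1.82% of all probes, 560 of 30795. Opposite signs with overlap at 180 days were also seen in other genes, among them Bbc3, Fas, Fasl and Bik. For Mcl1 the interaction was 0.386 log2 units (unadjusted p of 0.0112, adjusted p of 0.246 in limma). For Birc2 it was 0.282 log2 units (unadjusted p of 0.0355, adjusted p of 0.367 in limma). It read 16.4, 16.1 and 17.2 units in 180-day old LY ovaries against 15.6, 16.1 and 15.1 units in 180-day old black ovaries, and 18.5, 20.1 and 16.9 units in 90-day old LY ovaries against 21.0, 21.7 and 20.9 units in 90-day old black ovaries. The separation of Birc2 at 180 days was so narrow that the rounded values tie at 16.1 units (log2 difference 0.085, unadjusted p of 0.326 in limma). Neither interaction passed the test after adjustment over all probes. The second, dimmer probe of Birc2 gave an interaction of 0.15 log2 units (adjusted p of 0.916) and was lower in LY ovaries at both ages by estimate (-0.26 and -0.41 log2 units).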

How the results depend on the processing

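The count of the 7 genes that passed stayed at 0 at 180 days, at 90 days, in the interaction and in the average under every setting run. Between ages it was 5, and 4 only where a mean of 0.2 units was asked of every group, which left Bcl2l1 out. Small differences changed sign: Bcl2l11 at 180 days gave -0.0165 with quantile normalization and -0.0008 without rescaling, and -0.0933 to 0.13 when 1 array was left out. Leaving out 1 array gave -0.18 to 0.0618 for Bcl2, -0.17 to 0.13 for Fas and -0.15 to 0.0887 for Fasl at 180 days, and -0.20 to 0.0664 for Bcl2 at 90 days, which array weights turned to 0.0086. The Mcl1 interaction lay between 0.27 and 0.44 in all 22 settings (lowest adjusted p 0.195). Without 90-day black replicate 1, Bcl2l11 and Fasl at 90 days were -0.16 and 0.26, against -0.36 and 0.58 with it. Same-numbered LY and black arrays had deviations with correlations of -0.003, -0.072 and -0.056 at 180 days and 0.148, 0.073 and 0.051 at 90 days. Differently numbered arrays had -0.011 to 0.064 at 180 days and -0.16 to 0.115 at 90 days. These are small, and so few pairs cannot decide whether the numbers pair the mice, which were fitted as unpaired. With a replicate block 0 of the 7 genes passed in each comparison, the Mcl1 interaction had an adjusted p of 0.417, and 2, 1, 0 and 1 of all probes passed at 180 days, at 90 days, in the interaction and in the average, beside 14, 14, 0 and 2 without it. Over the other settings these counts of all probes ran from 0 to 158, 1 to 189, 0 to 215 and 1 to 114. The methods' t-test and the fit of 1 age alone give no interaction, average or age difference.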

Other observations

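In the wider list 2 genes of the death receptor route that were named after their values were seen had the same turn of sign as Mcl1. Tnfrsf1a, the gene of TNF receptor 1, read 9.25, 10.3 and 12.2 units in 180-day old LY ovaries against 9.45, 8.38 and 8.05 units in 180-day old black ovaries, and 8.28, 9.15 and 9.46 units in 90-day old LY ovaries against 9.76, 10.7 and 13.2 units in 90-day old black ovaries. Its interaction was 0.61 log2 units (adjusted p of 0.239 in limma). Fadd, the adaptor that links FAS to its caspase, read 8.20, 7.85 and 8.11 units in 180-day old LY ovaries against 7.72, 6.37 and 7.54 units in 180-day old black ovaries, and 4.29, 3.93 and 4.07 units in 90-day old LY ovaries against 4.85, 4.25 and 5.12 units in 90-day old black ovaries. Its interaction was 0.37 log2 units (adjusted p of 0.325). Neither passed the test. Tnfsf10 and Tnfrsf10b, also measured as death receptor and adaptor genes of the list, did not change sign. Of these 4 genes, 2 had an unadjusted p under 0.05 in the interaction in limma, beside 12.1% of all probes. Fas and Fasl turned the other way, and Bak1, an effector gene, had the same turn as Mcl1.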
